A study of Rattus norvegicus with 62 samples.

Results

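The comparison described here set the L4 dorsal root ganglion of the injured side against that of the opposite side in female rats, 5 weeks after a chronic constriction injury (CCI) was made on the sciatic nerve. It used 12 of the 62 RNA-seq libraries of the series, 6 ipsilateral and 6 contralateral, chosen by their labels, and all 18125 genes that passed a filter on low counts. Chronic constriction injury ties loose ligatures around the sciatic nerve of one hind limb and is a widely used model of neuropathic pain. Every animal was injured, so the opposite side is a control from an operated animal and no sham or uninjured group entered. The same code stood on both libraries of a number, so each opposite-side library had a partner. The strain and the age of the rats are not given in the sources used here. 2 further arms served for comparison: females at 1 week (7 libraries per side) and males at 5 weeks (5 per side).

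A dorsal root ganglion holds the cell bodies of the sensory neurons whose axons run in the nerve, each wrapped by satellite glia, together with Schwann cells, fibroblasts, vessels and resident macrophages. When the axon is damaged, the cell body switches on transcription factors such as Atf3 and a growth programme, changes its peptides, ion channels and receptors, and signals to glia and macrophages. Whole ganglia were counted, so fewer cells of a type and less RNA per cell cannot be told apart.

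The 12 libraries held 18.4 M to 23.0 M (mega) counts each. Values per library are CPM (counts divided by the scaled library size in M, that is per M counts). Differences are log2 fold changes, injured minus opposite side, from the quasi-likelihood test of edgeR with Benjamini-Hochberg adjustment over all genes tested. The standard error (SE) beside them was not estimated by the fit. It was worked back from the test, as the size of the change over the root of its F statistic. The SE is therefore approximate, and unreliable for genes near 0 counts and for differences near 0. A gene was called where its adjusted p was under 0.05. In the first principal component of the 12 libraries, which carried 48.4% of their variance, the sides did not overlap, and injured library 2 lay nearest to the opposite side. The share of ribosomal RNA overlapped between sides (1.68% to 2.44% opposite, 1.603% to 2.486% injured), as did that of hemoglobin (0.00537% to 0.0586% and 0.00858% to 0.0241%). Of 14 erythrocyte markers tested none was called (1 was lower without opposite library 2), and the same held for 14 neutrophil and mast cell markers (1 was higher with the replicate number as a block), whose summed level was 5.63 to 64.8 CPM on the opposite and 12.4 to 31.9 CPM on the injured side. The skeletal muscle and adipocyte list, in which 1 of 15 members rose and 2 fell, summed to 148 to 184 CPM on the opposite and 88.8 to 99.7 CPM on the injured side. Its calls included Pvalb, which is also a marker of proprioceptors. Pvalb alone made up most of the sum on both sides (130 to 166 CPM opposite, 69.6 to 82.5 CPM injured).

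The sides matched their labels. Atf3 (mRatBN7.2 chromosome 13, 102751278 to 102800520), a transcription factor switched on in axotomized sensory neurons, lay at 5.60, 8.48 and 9.17 CPM (lowest, median, highest) on the opposite side and at 145, 196 and 245 CPM on the injured side, a log2 fold change of 4.58 (SE 0.217, adjusted p = 6.32e-17). Gal, the peptide galanin, ran from 5.32 to 8.12 CPM on the opposite and from 63.9 to 179 CPM on the injured side. Gap43, a growth cone protein, ran from 183 to 210 CPM and from 435 to 630 CPM. No injured library of these genes overlapped an opposite one, and the injured side was higher in 6 of 6 numbered pairs.

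Across the genome 7606 of 18125 genes were called (42.0%), 4148 higher (22.9%) and 3458 lower (19.1%) on the injured side. Changes beyond 2-fold were mostly increases, with 641 genes higher and 137 lower. The median log2 fold change over all genes was 0.01. Because the opposite side is the yardstick of every value here, each was also taken against the 7 opposite-side libraries of the females at 1 week: 4990 of the called genes (65.6%) were then called in the same direction, 2657 higher (14.7% of genes tested) and 2333 lower (12.9%), and 33 were called in the opposite direction. Of the changes beyond 2-fold, 536 of 641 increases and 101 of 137 decreases were called against both control groups. The counts of members called against both control groups are given beside most lists, and the list counts plotted together show both. The lists and their members were chosen with earlier results of these data known, so the list counts are descriptions and test nothing. The shares over all genes, 22.9% higher and 19.1% lower, are the background for the list counts. The clock, cholesterol synthesis, sex steroid and lymphocyte lists lay below both shares.

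**Figure D1:**
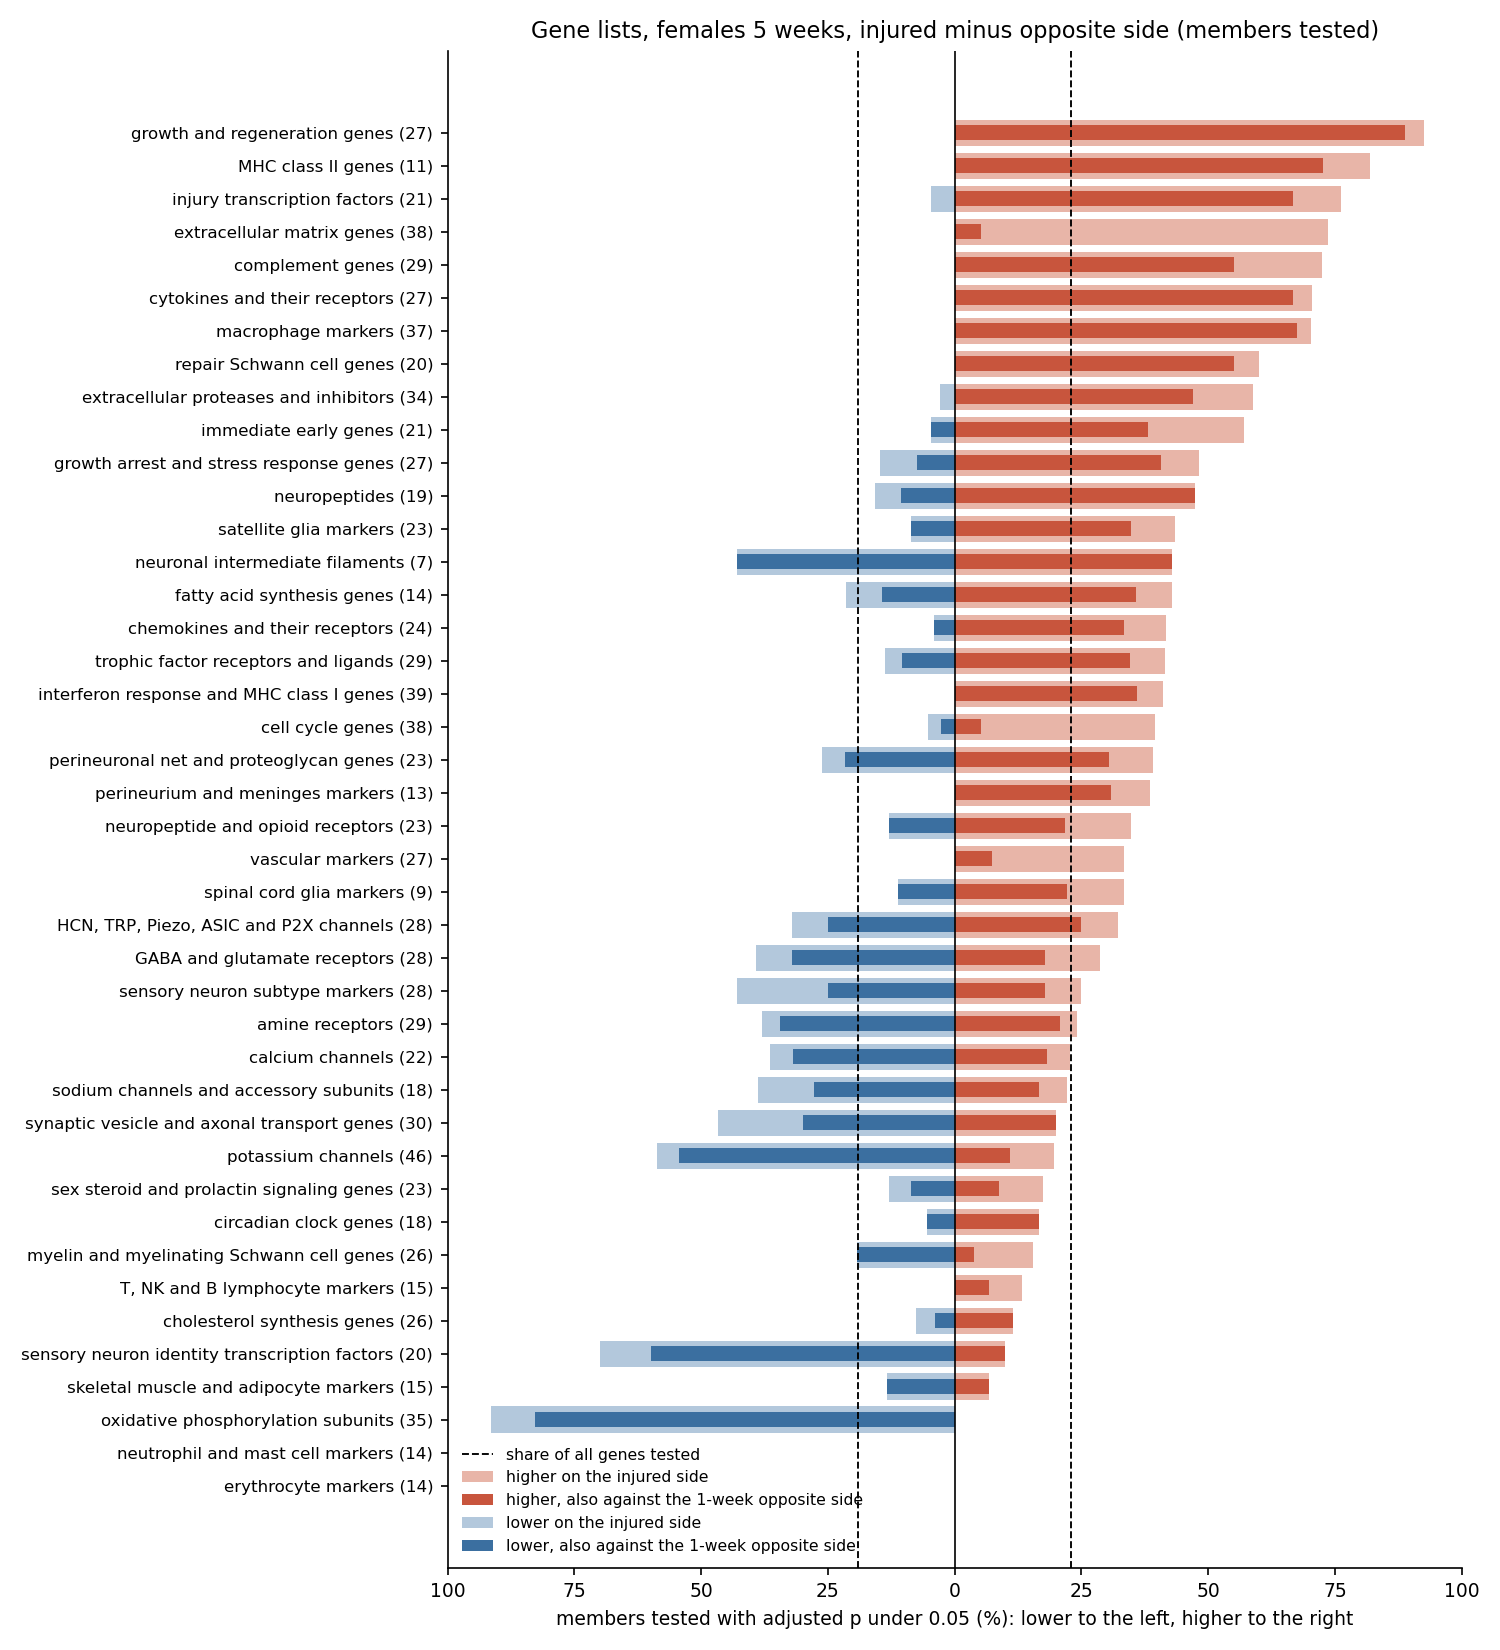
Share of the tested members of each gene list that were called higher (right) or lower (left) on the injured side (x axis, percent; number of members tested in brackets). Narrow dark bars are members also called in that direction against the 1-week opposite side, and dashed lines are the shares over all genes, 22.9% and 19.1%. In the growth and macrophage lists the dark bars are nearly as long as the pale ones, whereas in the extracellular matrix list 28 pale calls leave 2 dark ones.

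Called genes were ranked by log2 fold change if their mean log2 CPM was at least 1 and all 6 numbered pairs had the same sign. Placeholder symbols, such as LOC numbers, and microRNA symbols were left out, so other called genes could change by more. Of the ranked genes, those that rose furthest were Crisp3, Lce1f, Npy, Csrp3, Vip, Il24, Sprr1a, Cldn4, Hamp, Stac2, Ptprh and Serpina3n. Those that fell furthest were Mybpc1, Adra1a, Prg2, Glb1l2, Ckmt2, Pla2g7, Rem2, Klhl14, Agt, Trpm6, Cntn4 and Piwil2. Since AP-1 factors of the Jun, Fos and Atf families bind the letters TGACTCA or TGAGTCA and the related element TGACGTCA, RefSeq promoter windows of these genes (GRCr8, 250 bases before to 50 after the start of the gene) were searched for these letters on both strands. Windows matched 9 of the 12 increases and 7 of the 12 decreases. The AP-1 letters stood in 2 of the 9 and in 2 of the 7, beside 4.63% of 33469 windows of the same length, and TGACGTCA stood in none of them, beside 1.83% of all windows. The 4 windows with a match are shown up to the start of the gene, with the AP-1 letters in capitals.

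Sprr1a (GRCr8 chr2:180752626-180752875, minus strand): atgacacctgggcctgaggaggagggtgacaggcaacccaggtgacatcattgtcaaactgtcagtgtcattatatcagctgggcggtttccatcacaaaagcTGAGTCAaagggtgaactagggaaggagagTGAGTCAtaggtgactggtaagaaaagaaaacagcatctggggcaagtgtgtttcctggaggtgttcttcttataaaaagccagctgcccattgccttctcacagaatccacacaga

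Hamp (GRCr8 chr1:95300272-95300521, minus strand): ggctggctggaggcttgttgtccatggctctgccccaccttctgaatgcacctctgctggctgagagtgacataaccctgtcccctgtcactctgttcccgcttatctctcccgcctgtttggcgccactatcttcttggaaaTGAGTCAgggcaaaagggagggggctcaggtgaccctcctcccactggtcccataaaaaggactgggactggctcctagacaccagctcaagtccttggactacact

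Pla2g7 (GRCr8 chr9:24901748-24901997, minus strand): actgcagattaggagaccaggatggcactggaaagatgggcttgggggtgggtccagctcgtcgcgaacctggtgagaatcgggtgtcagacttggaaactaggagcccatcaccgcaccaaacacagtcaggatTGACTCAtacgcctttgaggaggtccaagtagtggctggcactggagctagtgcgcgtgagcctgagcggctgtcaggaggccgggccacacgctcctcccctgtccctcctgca

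Cntn4 (GRCr8 chr4:140180571-140180820, plus strand): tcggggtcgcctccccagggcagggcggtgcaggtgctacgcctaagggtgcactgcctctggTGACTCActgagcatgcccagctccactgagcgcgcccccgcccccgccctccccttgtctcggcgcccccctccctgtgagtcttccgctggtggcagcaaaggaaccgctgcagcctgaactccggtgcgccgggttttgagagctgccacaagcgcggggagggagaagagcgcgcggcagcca

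The match in Sprr1a began at bases -147 and -117 from the start of the gene, in Hamp at -107, in Pla2g7 at -115 and in Cntn4 at -187. Sprr1a and Hamp rose, and Pla2g7 and Cntn4 fell. Binding was not measured.

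Several of these genes were close to silent on the opposite side. Crisp3, a cysteine-rich secretory protein (chromosome 9, 20432051 to 20472663), had 1 count in all 6 opposite libraries together and 1210 in the 6 injured ones, a ratio of 1164 with a 95% counting interval of 208 to 46000. Sprr1a, a small proline-rich protein linked to axon outgrowth, had 1 count against 504. Lce1f, a cornified envelope gene, had 0 counts against 428, which is at least 137-fold higher. In each of these 3 genes every injured library was above every opposite one: Crisp3 ran from 5.05 to 18.3 CPM, Sprr1a from 2.12 to 5.56 CPM and Lce1f from 1.90 to 6.33 CPM on the injured side. Csrp3, a LIM protein of muscle, ran from 0 to 0.108 CPM on the opposite and from 9.41 to 26.8 CPM on the injured side. Il24, a cytokine of the interleukin-10 family, had 2 counts against 839. Cldn4, a tight junction claudin, ran from 0 to 0.266 CPM and from 7.498 to 21.0 CPM. Hamp, the iron hormone hepcidin, reached only 0.894 to 3.04 CPM on the injured side, above 0 to 0.0542 CPM opposite. The 2 widest spreads among the injured libraries were those of Ptprh, a receptor tyrosine phosphatase (2.10 to 54.5 CPM), and Serpina3n, a secreted serine protease inhibitor (12.9 to 157 CPM), and neither gene overlapped its opposite side (0.136 to 0.511 CPM and 0.177 to 4.14 CPM). The call of Ptprh was lost with limma-voom (5.29, adjusted p = 0.0582).

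The decreases were smaller. Mybpc1, a myosin-binding protein (chromosome 7, 22930350 to 23015981), lay at 3.09, 3.72 and 4.05 CPM on the opposite and at 0.105, 0.521 and 0.813 CPM on the injured side, and fell by 3.00 on the log2 scale (SE 0.251, adjusted p = 4.92e-12). Glb1l2, a galactosidase-like gene, fell from a median of 12.4 to 3.88 CPM. Pla2g7, the enzyme that breaks down platelet-activating factor, fell from a median of 71.0 to 24.0 CPM, with injured libraries from 19.8 to 32.2 CPM and opposite ones from 59.8 to 78.5 CPM. Cntn4, an axonal adhesion protein, ran from 27.8 to 35.6 CPM opposite and from 6.63 to 17.3 CPM injured. Piwil2, a small RNA binding protein, ran from 13.4 to 17.0 CPM and from 4.11 to 8.87 CPM. In Agt, which encodes angiotensinogen, the fall of 1.33 (SE 0.228) was 0.70 against the 1-week opposite side, and for Ckmt2, a mitochondrial creatine kinase whose sides overlapped by 1 library pair of values (5.76 to 12.2 and 1.68 to 5.88 CPM), a fall of 1.504 (SE 0.342) became 0.92. Prg2, an eosinophil granule protein, overlapped between sides (0.876 to 6.34 and 0.233 to 1.10 CPM). Its call (log2 fold change -1.69, adjusted p = 0.0289) was lost against the 1-week opposite side (-0.86, adjusted p = 0.305) and without opposite library 5 (-1.16, adjusted p = 0.146), injured library 5 (-1.51, adjusted p = 0.0642) or injured library 6 (-1.62, adjusted p = 0.0553).

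**Figure D2:**
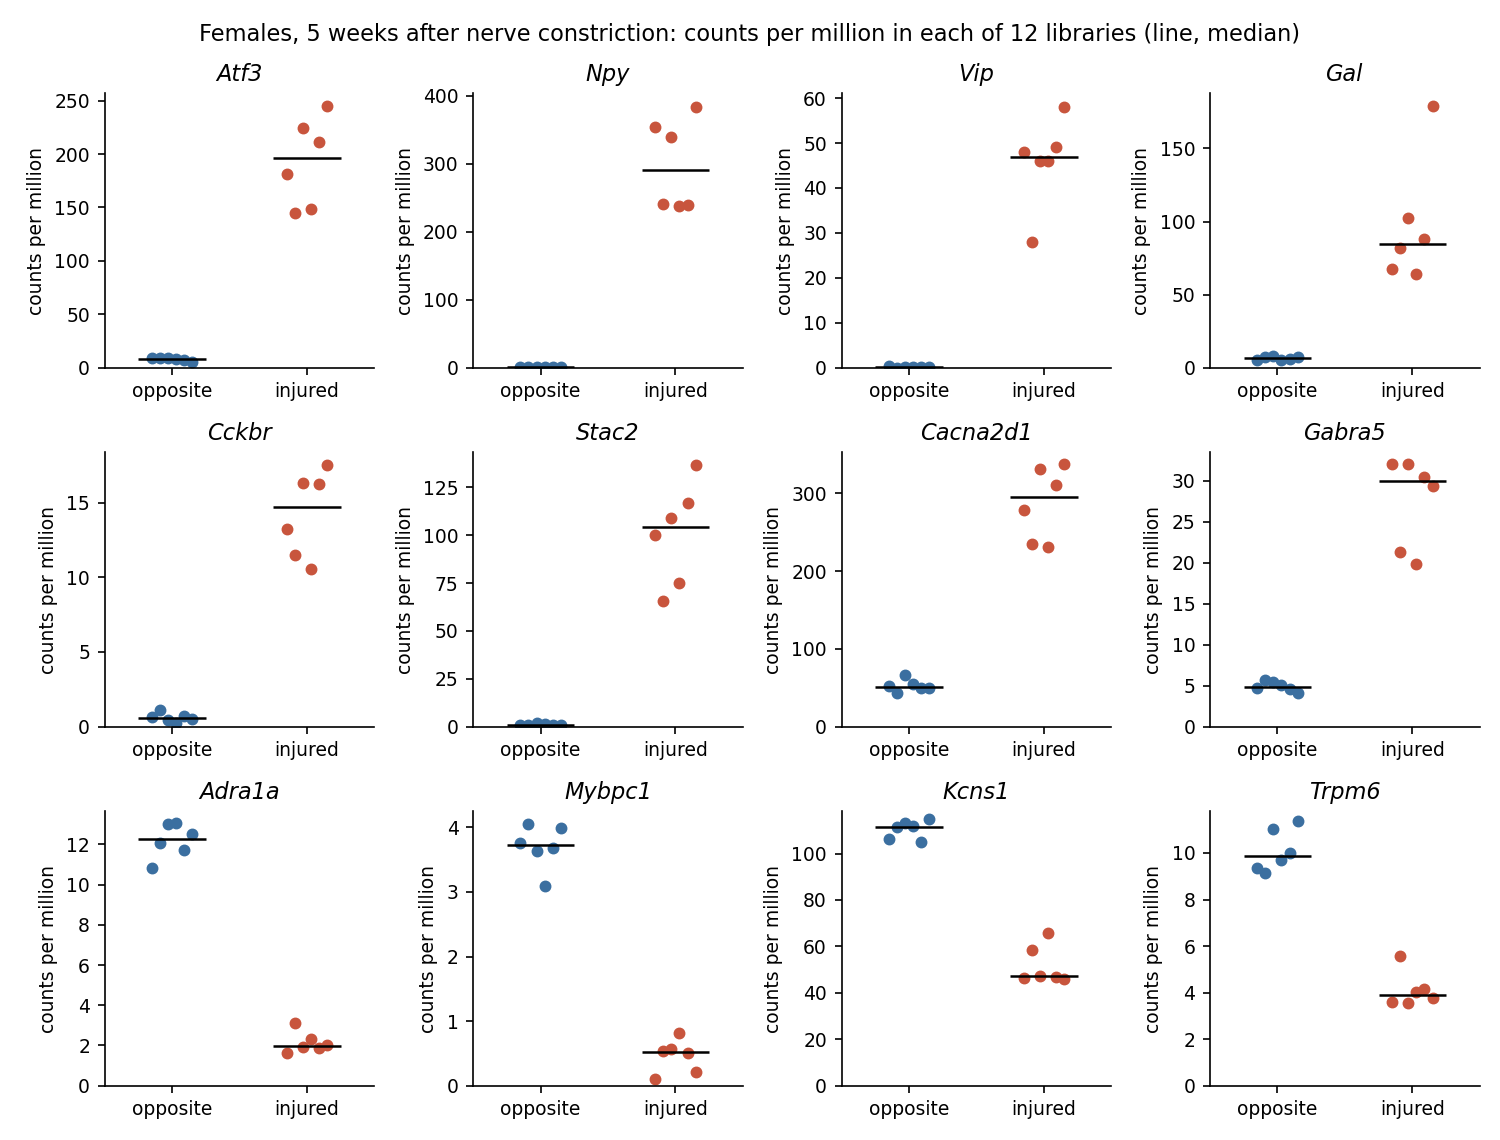
CPM (y axis, from 0) of 12 genes in the 6 opposite-side and 6 injured-side libraries of females at 5 weeks, each point a library and each line the median of a side. The sides of each of the 12 genes do not overlap; Npy runs from 238 to 384 on the injured side and Adra1a from 1.63 to 3.13.

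Transcription factors of the injury response were higher as a group: 16 of 21 tested rose and 1 fell, with a median log2 fold change of 0.56, and 14 rose and none fell against both control groups. Jun, the AP-1 partner of Atf3, rose from a median of 99.9 to 322 CPM (log2 fold change 1.65, SE 0.116). Sox11, an embryonic factor that supports axon regrowth, ran from 2.17 to 3.02 CPM opposite and from 10.6 to 21.1 CPM injured. Smad1, a transducer of bone morphogenetic protein signals, rose by 1.02 (SE 0.0957). Among 21 immediate early genes 12 rose and 1 fell, 8 of the 12 against both control groups, and the decrease was lost without opposite library 1 or 2 or injured library 4 or 5. Socs3, a brake on JAK and STAT signaling, rose by 1.90 (SE 0.196), and Fosl1 ran from 0 to 0.146 CPM opposite and from 0.529 to 1.72 CPM injured.

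The growth list was the most complete of the increases. Of 27 growth and regeneration genes tested 25 rose and none fell, 24 of them with sides that did not overlap (without overlap, 12.1% of all genes were higher and 9.56% lower), and 24 rose against both control groups. Draxin, a secreted axon guidance protein, ran from 0.195 to 0.651 CPM opposite and from 8.64 to 16.6 CPM injured. Tubb2b, a tubulin of growing neurons, rose from a median of 619 to 1258 CPM (0.97, SE 0.0649), and Lifr, the receptor for leukemia inhibitory factor, by 0.76 (SE 0.0484). Of 7 genes listed as neuronal intermediate filaments 3 fell and 3 rose. The neurofilament genes Nefh, Nefm and Nefl, which set axon calibre, fell by 0.60, 0.68 and 0.67, with Nefl at 8174 to 8979 CPM opposite and 4758 to 5911 CPM injured. Vim rose by 0.65 (SE 0.0904) and Prph, the peripherin of small and regrowing neurons, by 0.42 (SE 0.0625), from a median of 1889 to 2591 CPM. Whole ganglia were counted, so the cells in which Vim rose were not told apart. All of the 6 were called in the same direction against the 1-week opposite side.

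More neuropeptide genes rose than fell, and several rose strongly. Of 19 neuropeptide genes tested 9 rose and 3 fell, and the 9 rose and 2 fell against both control groups. Npy (chromosome 4, 78881294 to 78888495) lay at 0.395, 0.5002 and 1.27 CPM on the opposite side, and Vip (chromosome 1, 42064878 to 42073219) at 0, 0.0940 and 0.443 CPM with 28.0, 47.0 and 58.1 CPM on the injured side. Vgf, a granin-family precursor, rose from 37.2 to 50.3 CPM to 164 to 294 CPM (2.49, SE 0.145). Cck, cholecystokinin, ran from 0.133 to 0.395 CPM opposite and from 2.44 to 7.74 CPM injured, and its receptor Cckbr from 0.271 to 1.09 CPM and from 10.52 to 17.5 CPM (4.52, SE 0.244, adjusted p = 9.34e-17). Ligand and receptor were thus both higher. The nociceptor peptides Calca and Tac1 were not called: Calca ran from 534 to 717 CPM opposite and from 519 to 775 CPM injured (-0.07, SE 0.148, adjusted p = 0.750), and Tac1 was at 0.23 (SE 0.156, adjusted p = 0.246).

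Of 23 neuropeptide and opioid receptors tested 8 rose and 3 fell, 5 and 3 of them against both control groups. Npy2r, a receptor for the induced Npy, rose from 9.18 to 12.1 CPM to 25.9 to 43.2 CPM (1.67, SE 0.143). Sstr3, a somatostatin receptor, ran from 0.0988 to 0.651 CPM opposite and from 2.87 to 6.07 CPM injured. Oprm1, the mu opioid receptor, was among the 8 but depended on the control group, as described further on.

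Potassium channels, which repolarize neurons and limit firing, were more often lower than higher. Of 46 potassium channel genes tested 27 fell and 9 rose, with a median of -0.34 beside 0.01 over all genes. Of the 27, 25 fell against both control groups, but of the 9 increases 5 did. Kcns1, a silent modifier subunit, lay at 105, 112 and 115 CPM opposite and at 46.1, 47.2 and 65.6 CPM injured, a fall of 1.09 (SE 0.0785, adjusted p = 1.74e-13). Kcns3, another modifier, fell from a median of 80.0 to 31.2 CPM. Kcnk1, a leak channel, fell by 0.65 (SE 0.0723) and Kcna2, a juxtaparanodal channel, by 0.58 (SE 0.0865). Kcnq3, a subunit of the M current, ran from 11.5 to 16.8 CPM opposite and from 22.9 to 26.9 CPM injured (0.71, SE 0.0855), yet stood at 0.01 (adjusted p = 0.947) against the 1-week opposite side.

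Of 18 sodium channel genes 4 rose and 7 fell, 3 and 5 of them against both control groups. Scn3a, an embryonic channel known to return after nerve injury, ran from 14.3 to 20.1 CPM opposite and from 25.2 to 37.3 CPM injured (0.87, SE 0.105), with 0.41 against the 1-week opposite side. Scn3b, an auxiliary subunit, rose by 0.63 (SE 0.0692). Scn1a and Scn8a, channels of myelinated neurons, fell by 0.54 and 0.49 (SE 0.0680 and 0.0605), and their sides did not overlap. Scn11a, a channel of nociceptors, overlapped between sides (355 to 388 and 159 to 371 CPM) and fell by 0.53 (SE 0.152). Its neighbour in function Scn10a was at -0.35 (SE 0.128, adjusted p = 0.0267), a call lost without injured library 3 (-0.30, adjusted p = 0.0696), 5 (-0.33, adjusted p = 0.0553) or 6 (-0.27, adjusted p = 0.0889), and against the 1-week opposite side Scn11a and Scn10a had adjusted p of 0.0552 and 0.112. Scn9a was called higher here (0.30, SE 0.0551) but not against the 1-week opposite side (0.04, adjusted p = 0.570).

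Among 22 calcium channel genes 5 rose and 8 fell, 4 and 7 of them against both control groups. Stac2, an adaptor that slows inactivation of L-type channels, ran from 0.716 to 1.86 CPM opposite and from 65.6 to 136 CPM injured (6.43, SE 0.239, adjusted p = 4.47e-20). Cacna2d1, the auxiliary subunit bound by gabapentin, rose from 43.1 to 66.9 CPM to 232 to 338 CPM (2.44, SE 0.122), while its relative Cacna2d3 fell by 0.53 (SE 0.0644). Rem2, a GTPase that inhibits calcium channels, had opposite-side values of 17.2 to 22.9 CPM and injured ones of 4.26 to 11.1 CPM. Cacna1h, a T-type channel, overlapped between sides (62.7 to 74.0 and 32.2 to 63.2 CPM) and fell by 0.61 (SE 0.143).

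In the list of pacemaker, TRP, mechanosensitive, acid-sensing and ATP-gated channels 9 of 28 rose and 9 fell, with 7 in each direction against both control groups. P2rx6 and P2rx5, ATP-gated subunits, fell by 1.25 and 0.64 (SE 0.0973 and 0.0815), while P2rx2 rose by 1.43 (SE 0.136), from 4.08 to 6.08 CPM to 10.2 to 16.2 CPM. Hcn2, a pacemaker channel, fell from a median of 154 to 109 CPM. Trpm6, a magnesium channel, ran from 9.13 to 11.4 CPM opposite and from 3.54 to 5.56 CPM injured. Trpv1, the capsaicin receptor, was at -0.28 (SE 0.110, adjusted p = 0.0411), and its adjusted p passed 0.05 in 8 of 12 fits that each left out 1 library, reaching 0.115 without injured library 6, and against the 1-week opposite side (0.216).

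Of 28 GABA and glutamate receptor genes 8 rose and 11 fell, 5 and 9 of them against both control groups. Gabra5, a subunit of extrasynaptic receptors, ran from 4.14 to 5.68 CPM opposite and from 19.9 to 32.1 CPM injured (2.48, SE 0.176), and Gabrb1 rose by 2.32 (SE 0.186). Of 29 amine receptors 7 rose and 11 fell, 6 and 10 of them against both control groups. Adra1a, an alpha-1 adrenergic receptor (chromosome 15, 40830125 to 40935902), lay at 10.8, 12.3 and 13.1 CPM on the opposite side. Drd2, a dopamine receptor, rose by 1.54 (SE 0.157) and Htr2b, a serotonin receptor, from 0 to 0.177 CPM to 0.466 to 1.28 CPM. Htr1d, the receptor for triptans, fell by 0.86 (SE 0.116) and Hrh3, a histamine receptor, by 0.79 (SE 0.112).

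**Figure D3:**
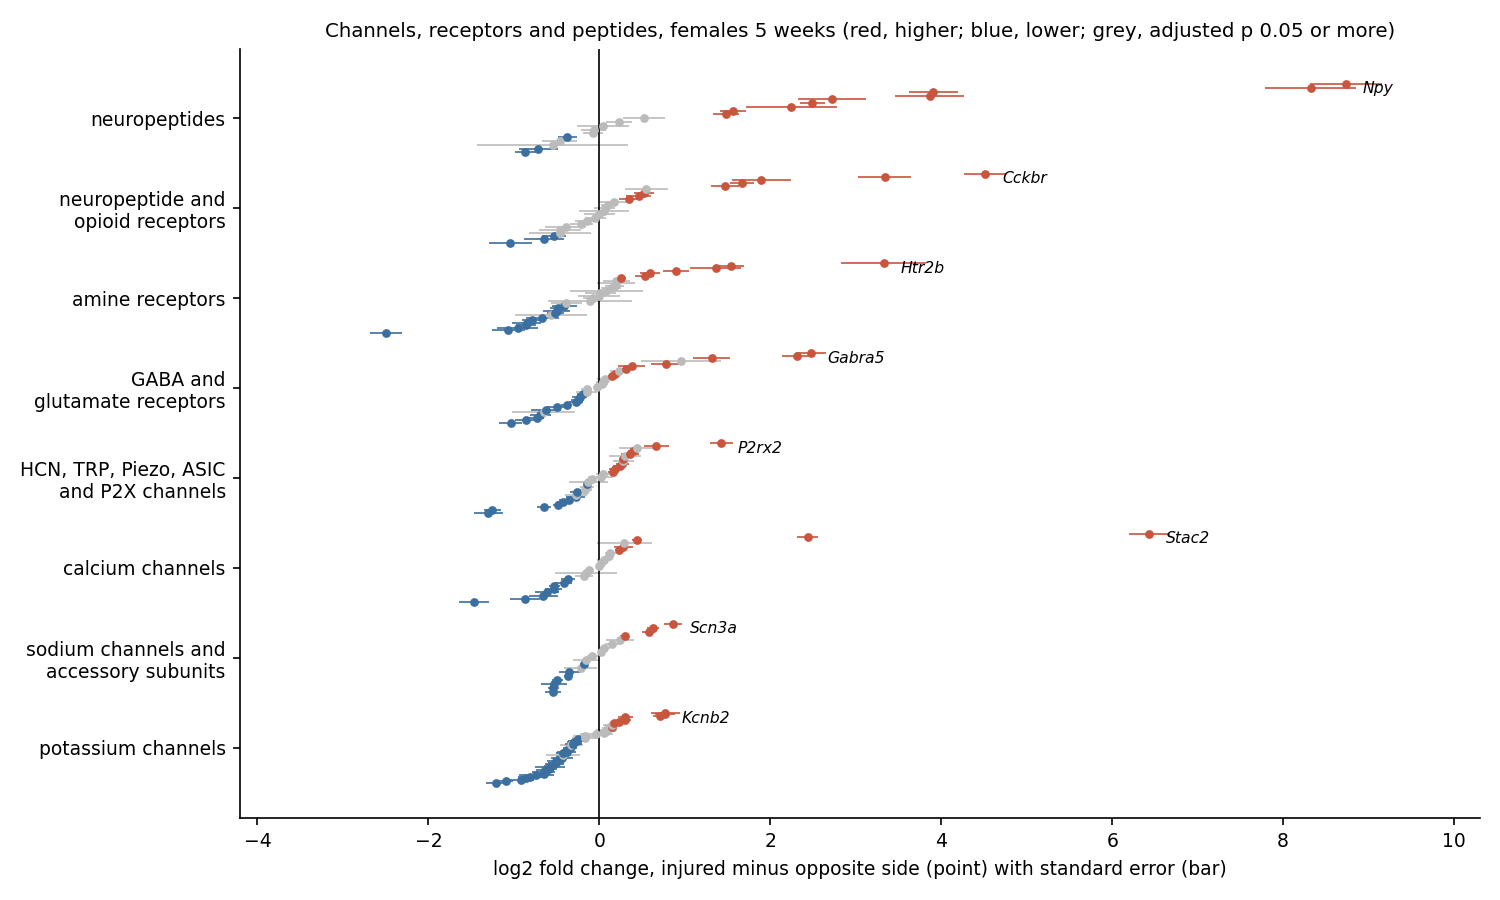
Log2 fold change, injured minus opposite side (x axis), of each tested member of 8 lists of channels, receptors and peptides, with bars of 1 SE; red is called higher, blue called lower and grey not called, and the highest member of each list is named. Of 46 potassium channels 27 are blue, while the neuropeptides reach up to Npy at 8.74.

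Transcription factors of sensory neuron identity were mostly lower, while subtype markers moved both ways. Of 20 identity transcription factors 14 fell and 2 rose, with 12 and 2 called against both control groups. Mafa, Onecut1 and Shox2, factors of mechanoreceptors and related classes, fell by 0.91, 0.78 and 0.44 (SE 0.106, 0.0940 and 0.0635). Onecut2 rose by 1.37 (SE 0.129), and by 0.40 (adjusted p = 0.00651) against the 1-week opposite side. Of 28 subtype markers 12 fell and 7 rose, 7 and 5 against both control groups, where 19.1% of all genes fell and 22.9% rose. The subtype markers named next are all from those that fell. Pvalb, of proprioceptors, fell from 130 to 166 CPM to 69.6 to 82.5 CPM (-1.004, SE 0.0729), and Calb2, of rapidly adapting mechanoreceptors, by 0.93 (SE 0.122). Slc17a7, the vesicular glutamate transporter of large neurons, fell by 0.47 (SE 0.0481). Genes of synaptic vesicles and axonal transport fell in 14 of 30 cases and rose in 6, and 9 fell and 6 rose against both control groups. Vamp1 and Snap25, proteins of vesicle fusion, fell by 0.87 and 0.73 (SE 0.0657 and 0.0613), Nsf by 0.41 (SE 0.0413), and Syt4 rose by 0.73 (SE 0.0778).

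Trophic factors and their receptors rose in 12 of 29 cases and fell in 4, with 10 and 3 against both control groups. Gfra1, a receptor of glial cell line-derived factor, rose from 244 to 274 CPM to 530 to 709 CPM (1.28, SE 0.0587, adjusted p = 8.63e-19), the smallest p of the list. Gfra3, the artemin receptor, rose by 0.86 (SE 0.0879). Csf1, the macrophage growth factor made by injured neurons, ran from 14.5 to 22.1 CPM opposite and from 51.2 to 76.0 CPM injured, and Fgf2 from 0.408 to 1.28 CPM and from 4.45 to 5.41 CPM.

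Energy genes moved by little but in one direction. Of 35 nuclear-encoded subunits of oxidative phosphorylation 32 fell and none rose, 29 of the 32 against both control groups, with a median of -0.21. Sdha, of complex II, fell from 217 to 228 CPM to 165 to 188 CPM (-0.32, SE 0.0369). The complex I subunit Ndufs3 and the ATP synthase subunits Atp5po and Atp5f1a fell by 0.34, 0.32 and 0.24 (SE 0.0453, 0.0396 and 0.0312). Of 26 cholesterol synthesis genes 3 rose and 2 fell, below the shares over all genes (22.9% and 19.1%). Against both control groups 3 rose and 1 fell. With the block 8 rose and 4 fell, 5 rose without opposite library 5 or injured library 4, and 1 fell without opposite library 4 or injured library 6. Of 14 fatty acid synthesis genes 6 rose and 3 fell, 5 and 2 of them against both control groups, with Acly, which makes cytosolic acetyl-CoA, at 0.34 (SE 0.0357).

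Cytokine genes and their receptors were higher: of 27 tested 19 rose and none fell, 18 of them against both control groups. Il1r1, Il4r and Il13ra1, receptor chains, rose by 1.49, 1.42 and 1.15 (SE 0.114, 0.113 and 0.104). Tslp, a cytokine of barrier tissues, ran from 0.767 to 1.27 CPM opposite and from 5.25 to 10.29 CPM injured. Il6 had 2 counts in the opposite libraries and 98 in the injured ones (ratio 47.1, 95% counting interval 12.7 to 394.6), and Il1a 0 and 90, at least 28.9-fold higher. Of 24 chemokines and chemokine receptors 10 rose and 1 fell, 8 and 1 of them against both control groups, with 6 rising without opposite library 2 or 3 and 2 falling without injured library 1. Ackr1, a chemokine scavenger of vessels, fell by 0.46 (SE 0.0602). Ccl2, which attracts monocytes, rose by 0.96 (SE 0.194) and overlapped between sides (7.505 to 21.5 and 13.2 to 27.1 CPM).

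Macrophage genes rose in 26 of 37 cases and none fell, 25 of them against both control groups, and the summed level of the list did not overlap between sides (1215 to 1393 and 1625 to 2175 CPM). Lcp1, an actin bundler of leukocytes, ran from 157 to 197 CPM and from 286 to 398 CPM (0.97, SE 0.0848). Cx3cr1, the fractalkine receptor, rose by 2.12 (SE 0.279), Itgax, an integrin of activated macrophages, by 1.96 (SE 0.277) and Itgam by 1.47 (SE 0.312). Complement genes rose in 21 of 29 cases and none fell, with 16 against both control groups. C4a and C4b, near-identical copies whose reads the counting could split, ran from 17.9 to 77.2 and from 4.84 to 19.7 CPM opposite and from 149 to 308 and from 40.5 to 100 CPM injured, and C1qa rose by 1.55 (SE 0.233).

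Antigen presentation genes overlapped widely between sides. Of 11 MHC class II genes 9 rose, 8 against both control groups, but in none did the sides stay apart, and the list summed to 38.3 to 343 CPM opposite and 155 to 503 CPM injured. Cd74, the invariant chain, ran from 16.7 to 162 CPM and from 86.5 to 252 CPM (1.48, SE 0.325, adjusted p = 4.26e-04), with injured library 2 the lowest of its side. Without that library 11 of 11 rose. Of 39 interferon response and MHC class I genes 16 rose and none fell, with 14 rising against both control groups. The count moved with single libraries: 6 rose and 1 fell without injured library 1, which had the highest summed level of all 12 (3696 CPM beside 1284 to 2037 CPM in the other 11), and 24 without opposite library 5 (2037 CPM). Gbp2, an interferon-induced GTPase, was at 116 CPM in injured library 1 and at 35.5 to 52.1 CPM in the other injured libraries. Its call was lost in the 12 libraries alone with the replicate block (1.25, adjusted p = 0.0668).

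Lymphocyte genes were near the floor. Of 30 listed markers of T, NK and B cells 15 passed the filter, 2 rose and none fell, and 1 rose against both control groups. Gzmb, granzyme B, ran from 0 to 0.562 CPM opposite and from 0.789 to 3.34 CPM injured (2.98, SE 0.503). The B cell factor Pax5 ran from 0.0973 to 0.409 CPM and from 1.01 to 1.84 CPM, and was not called against the 1-week opposite side (1.00, adjusted p = 0.0549).

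**Figure D4:**
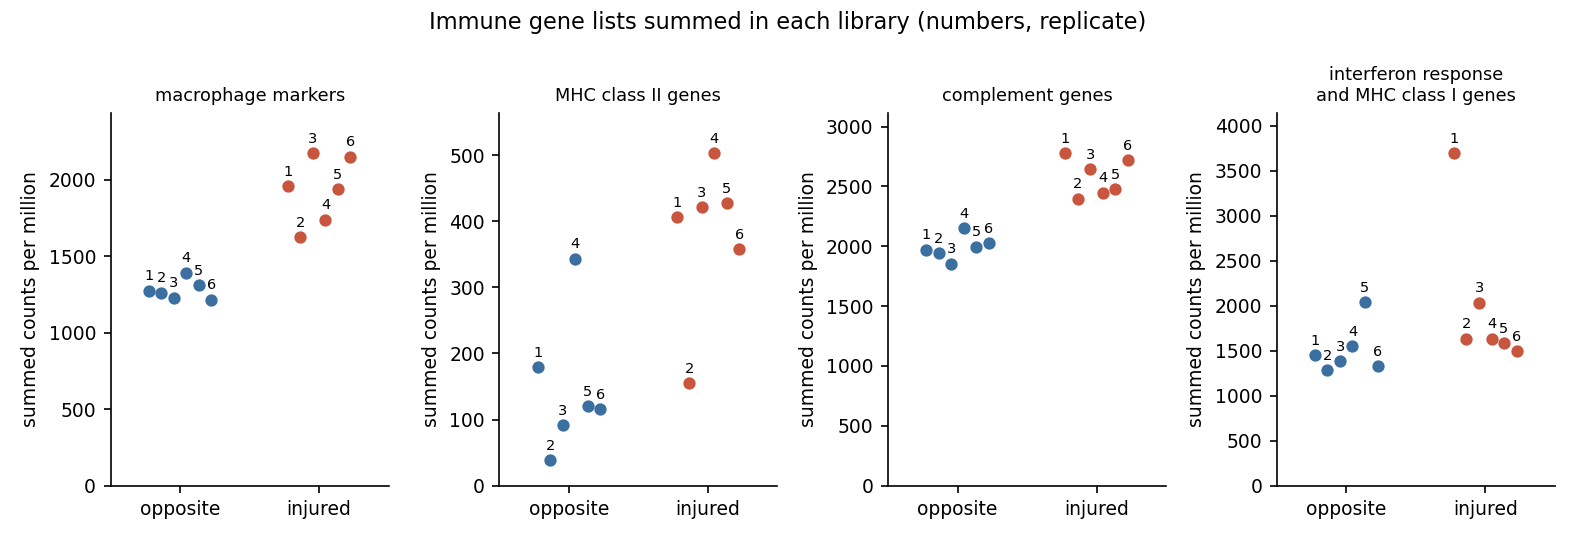
Summed CPM (y axis, from 0) of 4 immune gene lists in each of the 12 libraries, labelled by replicate number. Macrophage and complement sums do not overlap between sides, MHC class II sums do, with injured library 2 at 155, and injured library 1 stands apart at 3696 in the interferon and MHC class I list.

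Satellite glia markers rose in 10 of 23 cases and fell in 2, or 4 with the block, and 8 rose and 2 fell against both control groups. Gfap, the filament of activated satellite cells, ran from 11.97 to 22.5 CPM opposite and from 47.5 to 77.7 CPM injured (2.11, SE 0.244). Cdh19 and Ncam1, adhesion proteins of glia, rose by 0.69 and 0.33 (SE 0.0774 and 0.0355). Gfap is also a marker of astrocytes: of 9 spinal cord glia markers tested 3 rose and 1 fell, 2 and 1 of them against both control groups, and the list summed to 98.2 to 120 CPM opposite and 135 to 164 CPM injured. Mog, Opalin and Olig2, markers of central oligodendrocytes, were too low to be tested, and the part of spinal cord tissue in these values was not tested. Hapln2, of central nodes, fell by 1.10 (SE 0.122). In that list 3 members fell with the block, and 2 without opposite library 3 or injured library 1, 4 or 5. Genes of repair Schwann cells rose in 12 of 20 cases and none fell (1 did without injured library 2), 11 of them against both control groups. Among them Bdnf, which neurons also make, rose from 12.9 to 17.8 CPM to 32.7 to 48.5 CPM and Cdkn1a, a cell cycle inhibitor, from 4.72 to 5.89 CPM to 12.4 to 21.9 CPM. Growth arrest and stress genes rose in 13 of 27 cases and fell in 4, 11 and 2 of them against both control groups, with Gadd45a at 2.02 (SE 0.149), Gadd45g at 1.32 (SE 0.133) and Hspb1, a heat shock protein, at 0.87 (SE 0.100).

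Myelin genes depended on the control group. Of 26 tested 4 rose and 5 fell here, near or below the shares over all genes (22.9% and 19.1%). Against the 1-week opposite side 1 rose and 19 fell, beside 3466 higher and 3190 lower of 18125 genes. With the block 10 members fell. Without injured library 4, 11 fell, and without opposite library 1, 2 or 5 or injured library 2, 3 or 6, 3 did.

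Extracellular matrix genes depended on it as well. Of 38 tested 28 rose and none fell, but against the 1-week opposite side 2 rose and 9 fell. The 9 were a little above the share of all genes lower in that comparison (3190 of 18125). Col3a1, a fibrillar collagen, ran from 180 to 397 CPM on the opposite side, from 392 to 598 CPM on the injured side and from 430 to 1054 CPM on the 1-week opposite side, so that it rose by 0.83 (SE 0.241, adjusted p = 0.00584) against the first and fell by 0.81 (adjusted p = 0.00603) against the second. Col18a1, a basement membrane collagen, and Timp1, a protease inhibitor, were the 2 called higher with the smallest p and stayed higher, at 0.73 and 0.45 and at 0.70 and 0.42 with the 2 control groups. Lama4 and Lamc1, laminin chains, rose by 0.54 and 0.45 here and were not called against the 1-week opposite side (0.17 and -0.04). Vascular markers rose in 9 of 27 cases, 2 of them against both control groups, in 5 without opposite library 2, and in 16 with the block. Abcc9, of pericytes, rose by 0.93 (SE 0.118). Of 38 cell cycle genes 15 rose and 2 fell, with 2 increases and 1 decrease against both control groups. With the block, and without opposite library 3 or injured library 1 or 3, 1 fell. Mcm5, of the replication helicase, was higher against either control group, at 2.24 (SE 0.240) and 1.74.

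Proteases and their inhibitors rose in 20 of 34 cases and fell in 1, and 16 rose and none fell against both control groups. In that list 3 fell with the block and 2 without injured library 2. Mmp16 and Mmp19, metalloproteases, ran from 8.03 to 10.98 and from 5.68 to 7.00 CPM opposite and from 26.6 to 40.5 and from 19.1 to 25.2 CPM injured. Tgm1, a crosslinking enzyme, ran from 1.04 to 1.74 CPM and from 11.6 to 35.3 CPM, and Mmp3 had medians of 0.105 and 2.67 CPM with no overlap. Of 23 perineuronal net and proteoglycan genes 9 rose and 6 fell, 7 and 5 of them against both control groups, with Sdc1, a cell surface proteoglycan, at 2.33 (SE 0.157) and Has1, a hyaluronan synthase, at 4.48 (SE 0.419). Perineurium and meninges markers rose in 5 of 13 cases, 4 of them against both control groups, with Krt19 from 0.296 to 2.88 CPM to 3.88 to 10.4 CPM. Clock genes rose in 3 of 18 cases and fell in 1, below the shares over all genes (22.9% and 19.1%). The same numbers were called against both control groups. With the block 5 rose and 2 fell, and without injured library 5, 2 fell. Nfil3, a repressor of the clock's output, rose by 1.19 (SE 0.210).

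Of 23 sex steroid and prolactin signaling genes 4 rose and 3 fell, below the shares over all genes (22.9% and 19.1%). Against both control groups 2 rose and 2 fell, and 5 fell with the block or without injured library 1. Hsd3b1, an enzyme of progesterone synthesis, had 0 counts in the opposite libraries and 122 in the injured ones, at least 39.1-fold higher, and ran from 0.143 to 1.67 CPM there. Tspo, the mitochondrial translocator protein, ran from 4.49 to 6.07 CPM opposite and from 14.7 to 22.5 CPM injured (1.84, SE 0.139). Nr3c1, the glucocorticoid receptor, rose by 0.35 (SE 0.0621) and was at 0.04 (adjusted p = 0.619) against the 1-week opposite side.

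The same contrast of sides was tested against that of the females at 1 week, with which it shares no library. The difference between the 2 weeks was called for 2454 genes (13.5%), 1388 higher at 5 weeks (7.66%) and 1066 lower (5.88%). The share of ribosomal RNA moved with the 1-week sides, which did not overlap in it (1.69% to 2.75% opposite, 0.692% to 1.42% injured), and with that share as a covariate 678 genes were called, 500 higher and 178 lower. Its part in the result was not tested beyond that fit. Across the 18125 genes, which are not independent replicates, the log2 difference between weeks correlated with exon length at a Spearman rho of 0.188, beside -0.116 for the sides at 1 week and 0.0368 for those at 5 weeks. The part of exon length was not tested. Genes were named from those with a mean log2 CPM of at least 1 and no placeholder symbol. The 6 such increases with the smallest p were Ro60, Hecw1, Pik3c2a, Gucy1a2, Plcxd3 and Unc80. Ro60, an RNA-binding protein (chromosome 13, 55499514 to 55520504), lay at 4.30 to 7.66 CPM in the 5-week opposite and at 22.4 to 27.1 CPM in the 5-week injured libraries, and at 15.2 CPM or more and 9.66 CPM or less in those of 1 week. Its log2 fold change was thus 2.07 (SE 0.125) at 5 weeks and -1.59 (SE 0.114) at 1 week, a difference of 3.66 (SE 0.169, adjusted p = 3.16e-18).

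Oprm1 (chromosome 1, 43160057 to 43413409) followed the same arrangement. It ran from 2.199 to 4.34 CPM in the opposite and from 5.56 to 11.5 CPM in the injured libraries at 5 weeks (1.47, SE 0.167), and from 6.83 to 10.46 CPM and 1.22 to 2.36 CPM at 1 week (-2.29, SE 0.163). Against the 1-week opposite side the 5-week injured libraries stood at -0.01 (adjusted p = 0.958). Kcnb2, a delayed rectifier channel, was at 0.77 (SE 0.172) at 5 weeks and -1.86 (SE 0.164) at 1 week, and at -0.35 (adjusted p = 0.0867) against the 1-week opposite side. In 91 genes all 13 libraries of the 5-week injured and 1-week opposite groups were above the 13 others, and in 4 genes all were below. For comparison, 897 genes had both injured groups above both opposite groups and 630 had them below. In all, 427 genes were called at both weeks with opposite signs, 300 of them higher at 5 weeks. Both sides of both weeks took part in this arrangement: the median of Ro60 was 19.8 and 6.07 CPM on the opposite and injured side at 1 week and 5.74 and 24.6 CPM at 5 weeks. Atf3, with medians of 7.41 and 281 CPM at 1 week, matched the side labels in both. The weeks come from different animals, and side, week and the set of libraries cannot be told apart in these genes. Whether the labels or the handling of either set contribute was not tested.

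**Figure D5:**
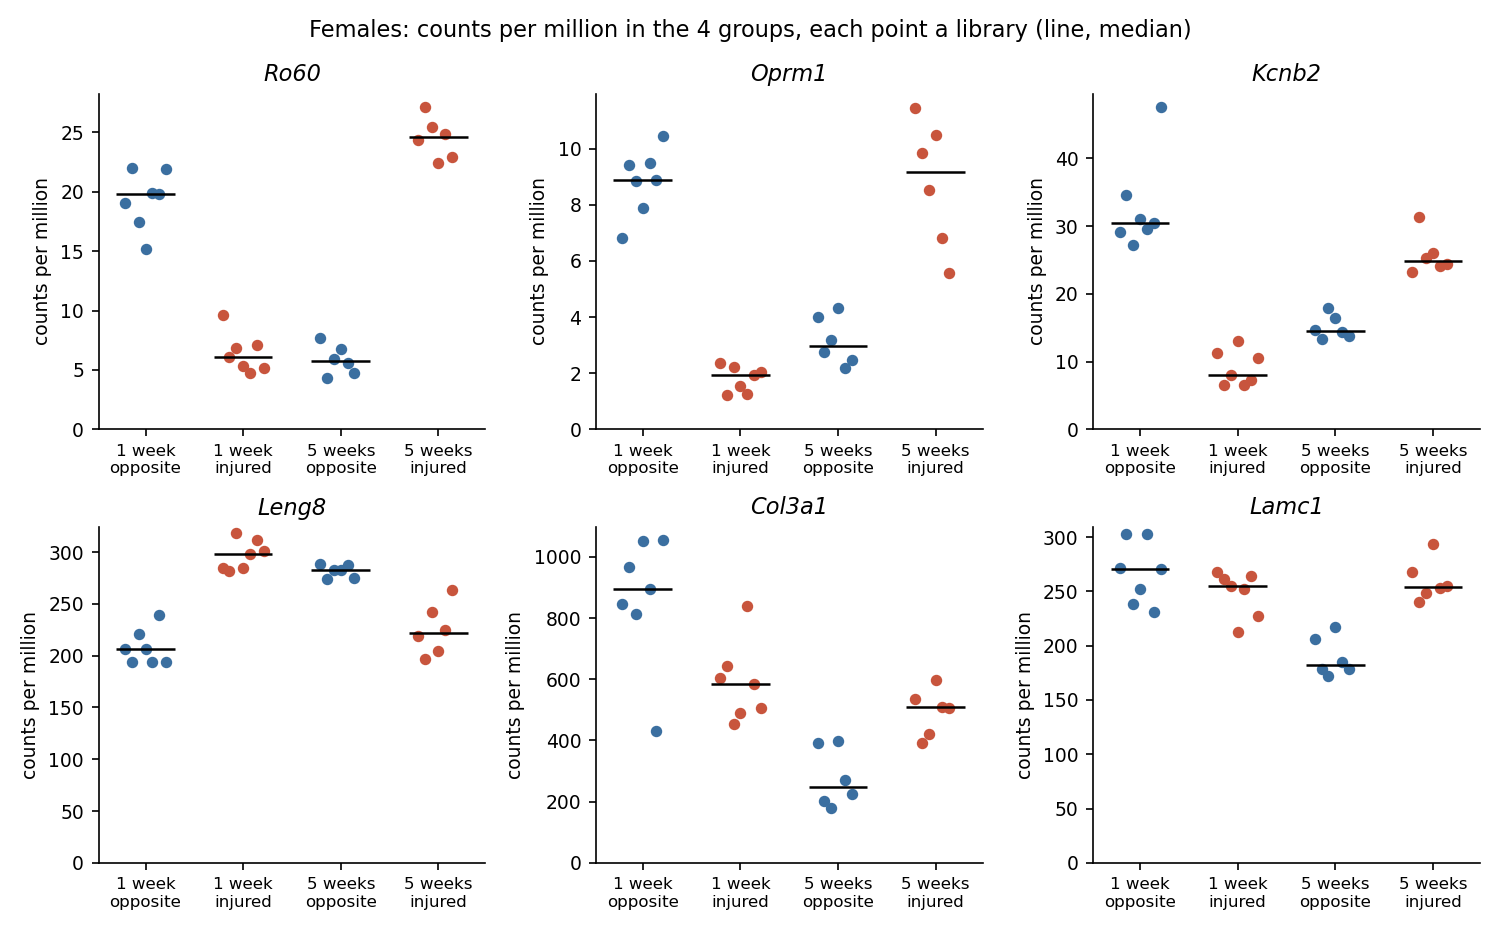
CPM (y axis, from 0) of 6 genes in the 4 female groups, each point a library and each line a median. Ro60, Oprm1 and Kcnb2 are high in the 1-week opposite and 5-week injured groups and low in the others, Leng8 the reverse, and Col3a1 and Lamc1 have their lowest medians in the 5-week opposite group.

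Under the same limits on mean level and symbol, the 6 decreases with the smallest p were Leng8, Fam193b, Tph2, Itga7, Pcgf1 and Pabpn1. Leng8, a nuclear RNA export gene, was at -0.32 (SE 0.0604) at 5 weeks and at 0.52 (SE 0.0559) at 1 week, and at 0.12 (adjusted p = 0.119) against the 1-week opposite side. Tph2, the neuronal enzyme of serotonin synthesis, and Itga7, a laminin-binding integrin, were higher on the injured side at both weeks, but less so at 5: Tph2 rose by 1.03 (SE 0.127) and by 2.44 (SE 0.117), a difference of -1.42 (SE 0.171, adjusted p = 1.02e-07), and Itga7 by 0.26 and 0.80, a difference of -0.54 (SE 0.0656). In the extracellular matrix list the log2 fold change at 5 weeks was above that at 1 week in 25 of 38 members and below it in none, with list medians of 0.65 and -0.15. Of 46 potassium channels it was above in 13 and below in 1, where the list medians were -0.34 at 5 weeks and -0.61 at 1 week. In the growth list it was below in 6 members and above in 2, with medians of 0.76 and 0.90. Tslp, Tgm1, Nfil3, Cdkn1a, Gadd45g and Hspb1 also rose by less at 5 weeks, with adjusted p from 0.00272 to 0.0387 and differences of -1.30, -1.31, -0.998, -0.78, -0.76 and -0.55. For Atf3, Npy, Vip, Gal and Sprr1a the difference between weeks was not called (adjusted p from 0.108 to 0.929).

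Against males at 5 weeks the difference in response was called for 405 genes (2.11%), 297 higher in females (1.55%) and 108 lower (0.562%), and with the replicate number as a block for 697, 500 higher and 197 lower. The 108 became 55 without male opposite library 4, 59 without male injured library 5 and 67 without the filter. All male 5-week libraries stand in another count table, so sex and table cannot be told apart, and libraries were scaled together for this test. Under the same limits as above, the 6 increases with the smallest p were Ro60, Plcxd3, Dmxl1, Pik3c2a, Unc80 and Gucy1a2. The 6 decreases were Fam193b, Srsf2, Leng8, Entr1, Snrnp70 and Lmbr1l. All of these but Ro60 changed sign in females when taken against the 1-week opposite side. Ro60 itself was lower on the injured side of females at 1 week. Srsf2, Entr1 and Lmbr1l were close to 0 and not called in females at 5 weeks (-0.039, -0.034 and -0.038). In males their opposite and injured medians were 125 and 150, 36.4 and 42.5, and 18.0 and 25.3 CPM. The female values of the other genes named depended on the control group or the week. Female values in this paragraph come from the fit of the females' own count table. Male values and differences come from the joint fit of both tables, so they need not subtract exactly. Ro60 was at 2.07 in females and 0.17 (SE 0.116) in males, a difference of 1.88 (SE 0.161, adjusted p = 1.37e-12). Oprm1 was at 1.47 and -0.65 (SE 0.175), a difference of 2.10 (SE 0.242). For genes that led the response no difference was called: the adjusted p was 0.955 for Atf3, 0.773 for Npy, 0.939 for Vip, 0.768 for Stac2 and 0.784 for Adra1a, with differences of 0.08 (SE 0.277), 0.73 (SE 0.729), -0.47 (SE 1.37), -0.47 (SE 0.462) and -0.27 (SE 0.284). The SE of the Vip difference is not reliable: the responses it compares had 0.532 in females and 0.535 in males. No difference was called in the macrophage, MHC class II and complement lists. The closest member named here was Cx3cr1 at 1.33 (adjusted p = 0.0591). The list medians were 1.08 in females and 0.38 in males for macrophage, 1.26 and 1.08 for MHC class II and 0.97 and 0.33 for complement genes, given as a description without a test.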

How the data were processed

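RNA was measured by poly-A selected, stranded sequencing of whole L4 ganglia. The authors deposited 2 tables of estimated counts per gene, per the submitters' processing notes, which name the genome build mRatBN7.2, the aligner STAR (2.7.2b), the counter featureCounts (1.6.4), the trimmer cutadapt (2.5) and, for base calls, bcl2fastq. The values are not all whole (78.15% of nonzero values in the second table were), and how reads were shared between genes is not given in the sources used here. They were rounded here, which moved no library total by more than 0.0014%.

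Genes were kept by the edgeR filter with a minimum count of 10. Counts were scaled by TMM and fitted with the robust quasi-likelihood model of edgeR 4.0.16 (R 4.3.3) over the 38 libraries of the second table in 6 groups, so that groups share 1 estimate of spread. The difference from males used both tables, 62 libraries in 10 groups. Calls used Benjamini-Hochberg adjusted p under 0.05. DESeq2 1.42.0 and limma 3.58.1 were alternatives. The test was checked on simulated data.

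Libraries with the same number and animal code were taken as the 2 sides of 1 animal. Their deviations from group means correlated at 0.299 to 0.558 in the 6 pairs (median 0.414). Libraries of different numbers correlated at -0.452 to 0.340 (median -0.105), so the 2 ranges overlapped. The replicate block was an alternative. No 2 libraries agreed within sampling noise.

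The comparison, the 42 gene lists and their members were chosen with earlier results of these data known. Genes were named as the 12 largest increases and decreases among called genes, up to 4 of smallest p per list and 5 checks of the labels. A further 6 of smallest p were named per direction for each difference between responses. The largest changes needed the same sign in 6 of 6 pairs. They and the genes of the differences also needed a mean log2 CPM of at least 1 and a symbol that was no placeholder. Of the genes given values, Cck, Calca, Tac1, Kcnb2, Kcnq3, Kcna2, Scn9a, Scn10a, Scn11a, Il6, Il1a, Itgam, Col3a1, Mmp3, Trpv1, Prph, Cacna1h and Htr2b were chosen after their values were seen. Gene coordinates come from the deposited tables, and promoter sequences from RefSeq on GRCr8. A few genes that the rule names are not reported here.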

Additional observations from a re-analysis of the deposited data

Results flagged for a closer look

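In the 2 groups of 6, each printed gene was looked at for a library whose gap to the nearest other exceeded the 95% critical value of Dixon's test. Gaps were taken on log2 CPM, and the values below are CPM. Of 316 groups of values 22 held such a library, not far above the share of about 5% that chance gives. Injured library 2 stood apart most often. Its values were lower for Vip at 28.0 CPM there and 45.9 to 58.1 CPM in the other injured libraries, Fosl1 at 0.529 CPM there and 1.196 to 1.72 CPM in the other injured libraries, Cx3cr1 at 2.12 CPM there and 4.29 to 5.31 CPM in the other injured libraries, C1qa at 17.4 CPM there and 23.2 to 27.4 CPM in the other injured libraries, Cd74 at 86.5 CPM there and 186 to 252 CPM in the other injured libraries. They were higher for Trpm6 at 5.56 CPM there and 3.54 to 4.15 CPM in the other injured libraries and Mafa at 8.91 CPM there and 6.80 to 7.36 CPM in the other injured libraries. Injured library 1 was high for C4b (100.4 CPM beside 40.5 to 53.0 CPM) and Gbp2 (116 CPM beside 35.5 to 52.1 CPM). A library also stood apart for Glb1l2 at 15.4 CPM in opposite library 6 beside 11.6 to 12.8 CPM in the others, Dmxl1 at 37.5 CPM in opposite library 6 beside 42.3 to 45.3 CPM in the others and Nefh at 8371 CPM in opposite library 3 beside 7481 to 7798 CPM in the others. A library also stood apart for Cck at 7.74 CPM in injured library 6 beside 2.44 to 3.15 CPM in the others, Atp5f1a at 569 CPM in opposite library 4 beside 602 to 620 CPM in the others and Ccl2 at 21.5 CPM in opposite library 5 beside 7.505 to 9.49 CPM in the others. A library also stood apart for Gbp2 at 49.0 CPM in opposite library 5 beside 14.3 to 21.8 CPM in the others, Srsf2 at 169 CPM in opposite library 5 beside 157 to 160 CPM in the others and Sdc1 at 3.95 CPM in opposite library 2 beside 5.45 to 5.68 CPM in the others. In 4 genes the only opposite-side library above 0 was the one that stood apart, with 1 or 2 counts: Crisp3 at 0.0494 CPM, Il24 at 0.0908 CPM, Sprr1a at 0.0487 CPM, Hamp at 0.0542 CPM. Where all the others are at 0 the gap is the whole range, so such a library always stands apart.

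By the quasi-likelihood test of the difference, with Benjamini-Hochberg adjustment, the response of females at 5 weeks was above that of females at 1 week in 25 printed genes. Their log2 differences were Lifr 0.29, Oprm1 3.76, Kcna2 0.43, Kcnq3 1.32, Scn3a 0.71, Scn1a 0.36, Scn8a 0.32, Scn9a 0.76, Cacna2d1 0.48, Gabrb1 0.84, Onecut2 2.13, Cdh19 0.40, Col3a1 1.39, Lama4 0.49, Lamc1 0.55, Abcc9 0.79, Nr3c1 0.49, Ro60 3.66, Hecw1 1.56, Pik3c2a 1.33, Gucy1a2 2.27, Plcxd3 2.55, Unc80 1.61, Kcnb2 2.63 and Dmxl1 1.49. It was below in 21 printed genes, with log2 differences of Pvalb -0.43, Tubb2b -0.33, Scn3b -0.36, Syt4 -0.43, Tslp -1.30, Lcp1 -0.47, Cdkn1a -0.78, Gadd45g -0.76, Hspb1 -0.55, Tgm1 -1.31, Nfil3 -0.998, Leng8 -0.84, Fam193b -0.57, Tph2 -1.42, Itga7 -0.54, Pcgf1 -0.82, Pabpn1 -0.50, Srsf2 -0.27, Entr1 -0.35, Snrnp70 -0.63 and Lmbr1l -0.58. Against the response of males at 5 weeks it was above in 12 printed genes, with log2 differences of Oprm1 2.10, Kcnq3 0.62, Scn9a 0.40, Onecut2 1.18, Ro60 1.88, Hecw1 0.79, Pik3c2a 0.77, Gucy1a2 1.22, Plcxd3 1.46, Unc80 0.88, Kcnb2 1.49 and Dmxl1 0.91, and below in 8, with log2 differences of Leng8 -0.56, Fam193b -0.46, Pcgf1 -0.58, Pabpn1 -0.33, Srsf2 -0.32, Entr1 -0.28, Snrnp70 -0.45 and Lmbr1l -0.46. Genes chosen by the smallest p of these same tests are among them.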

How the results depend on the processing

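The count of 7606 genes called between sides stayed within 1.5 times under the alternatives run for it: size factors of DESeq2, DESeq2 itself, limma-voom, no filter, a minimum count of 50, the ribosomal RNA share as a covariate, the 12 libraries alone, the replicate block, the 1-week opposite side as control (6656), the mean of both weeks (9632), and 6875 to 7818 genes with 1 library left out. The difference between weeks held 2075 to 2557 genes with 1 library left out but fell to 678 with the ribosomal RNA share as a covariate, and the cause was not tested. The difference between females and males held 327 to 554 genes with 1 library left out. With the replicate number as a block 697 genes were called for it, 8341 between sides and 3217 between weeks, and the block over all groups changed the call of none of the 158 printed genes. In the 12 libraries alone with the block Prg2 (-1.51, adjusted p = 0.0625), Scn10a (-0.39, adjusted p = 0.0541) and Gbp2 (1.25, adjusted p = 0.0668) lost theirs. With the 1-week opposite side as control 131 of 158 genes kept their direction and side of the threshold, 9 lost the call and 18 changed sign: Oprm1 -0.0133, Col3a1 -0.81, Lamc1 -0.0405, Hecw1 -0.34, Pik3c2a -0.0239, Gucy1a2 -0.19, Plcxd3 -0.0142, Unc80 -0.16, Kcnb2 -0.35, Leng8 0.12, Fam193b 0.11, Pcgf1 0.16, Pabpn1 0.0485, Dmxl1 -0.24, Srsf2 0.0659, Entr1 0.0879, Snrnp70 0.0338 and Lmbr1l 0.24. With the mean of the responses at both weeks, chosen after seeing the data, 16 changed sign: Oprm1 -0.41, Scn9a -0.0826, Hecw1 -0.42, Gucy1a2 -0.25, Plcxd3 -0.26, Unc80 -0.34, Kcnb2 -0.54, Leng8 0.0959, Fam193b 0.0163, Pcgf1 0.14, Pabpn1 0.12, Dmxl1 -0.19, Srsf2 0.0965, Entr1 0.14, Snrnp70 0.12 and Lmbr1l 0.25. The cause was not tested. Srsf2, Entr1 and Lmbr1l were close to 0 and not called in the main comparison. Of 1896 fits that left out 1 library, 15 lost a call, and Lmbr1l, not called in the main comparison, went from -0.0698 to 0.0109 over the libraries left out, the only change of sign. Depth limits genes near 0 on the opposite side, where intervals cover counting error only, and 3 printed genes lost their call without the filter and 2 with limma-voom.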
